A study of Mus musculus with 6 samples.

Results

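The circadian clock of muscle was described here through 10 genes that were picked by name, as rows of the deposited table, out of 16759 genes. They are, with their Entrez gene IDs, Clock (12753), Nfil3 (18030), Nr1d1 (217166), Dbp (13170), Ciart (229599), Nr1d2 (353187), Per3 (18628), Tef (21685), Per1 (18626) and Per2 (18627), and all 10 were found. RNA of hind leg muscle came from male C57BL/6J mice that were 8 weeks old when the experiment began, 3 in a sedentary control group (Con) and 3 in an exercise group (EX), with 1 library per mouse. The EX mice ran on a treadmill for 60 min a day, 5 days a week, for 6 weeks, about 22 km in all, in the first hours of the dark phase, and their muscle was taken 24 h after they last ran. The hour at which the Con mice were killed is not given in the sources used here, so that an effect of training and a difference in the hour of collection cannot be told apart. In bulk tissue, fewer cells of a type and less RNA per cell cannot be told apart either.

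Nearly every cell holds a clock in which the CLOCK and BMAL1 proteins, bound together on E-box sites, switch on the genes of their own repressors, the PER and CRY proteins. A second loop runs through the REV-ERB repressors (Nr1d1 and Nr1d2) and the ROR activators, which compete on ROR elements of Arntl (the gene of BMAL1), Clock and Nfil3. A further loop acts on D-box sites, where the activators DBP, TEF and HLF are opposed by the repressor NFIL3. In the peripheral tissues of mice, kept in light and dark, Clock and Nfil3 transcripts peak around the end of the night and Nr1d1 in the light phase. Dbp, Ciart, Nr1d2, Per3 and Tef follow later in the light phase, and Per1 and Per2 come last, around dusk and in the early night. Plots show the genes in that order, and in the text each gene stands beside its partner or paralogue.

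Promoter sequences of the clock genes are shown because these sites define the loops named above. RefSeq windows on GRCm38.p6, from 250 bases before to 50 bases after a transcript start, were matched by symbol for 9 of the 10 genes, and the letters of each site were searched on both strands. The E-box was searched as CACGTG, a noncanonical E-box as CACGTT, the D-box as TTATGTAA or TTACGTAA, the core of the ROR element as TAGGTCA or TGGGTCA, and the cAMP response element as TGACGTCA. Among 32851 windows of all genes, 7.15% held the E-box, 4.68% the noncanonical E-box, 1.06% the D-box, 6.45% the ROR core and 1.79% the cAMP response element. An E-box lay in windows of Ciart, Per1 and Tef, a noncanonical E-box in that of Nr1d1, D-boxes in that of Per3 and a ROR core in that of Nfil3. None of these matches overlapped another. The stretches below, 5′ to 3′ on the strand of the gene and ending before any annotated exon except for Nfil3, carry the matched letters in capitals. Ciart lies on the minus strand at chr3:95882252-95882478, Nr1d1 on the minus strand at chr11:98775378-98775627, Per3 on the minus strand at chr4:151044666-151044915, Per1 on the plus strand at chr11:69098699-69098947 and Tef on the plus strand at chr15:81811164-81811413. In GENCODE M21 the Per1 and Tef stretches lie within the bodies of the same genes, that of Ciart within C920021L13Rik and that of Per3 within Camta1, and that of Nr1d1 lies in no gene body. The short Nfil3 site, minus strand, chr13:52981034-52981062, lies in the first exon.
Ciart: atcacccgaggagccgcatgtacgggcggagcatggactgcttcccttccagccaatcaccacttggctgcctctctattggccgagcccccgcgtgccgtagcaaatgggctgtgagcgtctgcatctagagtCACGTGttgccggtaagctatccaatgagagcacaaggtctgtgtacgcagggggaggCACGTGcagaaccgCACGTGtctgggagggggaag
Nr1d1: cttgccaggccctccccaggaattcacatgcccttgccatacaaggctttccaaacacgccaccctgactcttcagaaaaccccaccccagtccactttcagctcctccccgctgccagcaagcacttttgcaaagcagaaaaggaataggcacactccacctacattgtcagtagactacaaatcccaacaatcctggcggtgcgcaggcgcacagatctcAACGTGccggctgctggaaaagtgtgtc
Per3: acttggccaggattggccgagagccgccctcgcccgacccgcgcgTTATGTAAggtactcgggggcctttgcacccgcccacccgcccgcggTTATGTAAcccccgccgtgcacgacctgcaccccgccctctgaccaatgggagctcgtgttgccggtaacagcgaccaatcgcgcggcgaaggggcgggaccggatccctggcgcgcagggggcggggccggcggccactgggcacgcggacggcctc
Per1: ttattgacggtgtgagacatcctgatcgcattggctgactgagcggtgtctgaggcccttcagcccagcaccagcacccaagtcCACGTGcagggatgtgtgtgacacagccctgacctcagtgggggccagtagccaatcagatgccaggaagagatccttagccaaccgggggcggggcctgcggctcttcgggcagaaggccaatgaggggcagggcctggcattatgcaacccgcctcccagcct
Tef: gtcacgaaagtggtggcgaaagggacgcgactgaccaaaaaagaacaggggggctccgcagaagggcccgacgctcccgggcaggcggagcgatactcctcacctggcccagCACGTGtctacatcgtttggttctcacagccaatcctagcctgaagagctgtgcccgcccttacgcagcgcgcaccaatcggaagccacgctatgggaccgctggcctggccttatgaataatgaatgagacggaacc
Nfil3: gcgctcggaacTGACCTActaacacacat

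The Ciart stretch holds 3 E-boxes, which begin 116, 58 and 44 bases before the start, and both D-boxes of Per3 read TTATGTAA and begin 205 and 158 bases before it. The E-box of Per1 begins 166 bases before the start in the stretch shown, and another Per1 window, at a separate start, held none of the searched sites. Tef has 2 windows, at separate starts, with an E-box each, which begins 138 bases before the start in the stretch shown and 127 bases before the start in the other window. In Nr1d1 the noncanonical E-box begins 28 bases before the start and reads AACGTG on the strand of the gene. The ROR core of Nfil3 begins 12 bases before the RefSeq start and reads TGACCTA on the strand of the gene. For Clock, Dbp and Nr1d2 these letters did not occur in the windows.

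Of the 10 clock genes, 6 were lower and 2 higher in EX muscle than in Con muscle with an adjusted p-value under 0.05, and Nr1d2 and Tef did not pass. Levels are given as CPM, read counts relative to the TMM-scaled library size, and were compared with edgeR's quasi-likelihood test, adjusted by the Benjamini-Hochberg method over all 10883 genes that averaged 1 FPKM or more. Log2 fold changes are EX over Con and stand with their standard error (SE). All 10 clock genes were above this limit, and their counts were whole numbers in every library. Among all genes tested, 17.9% passed in either direction, 9.11% as higher and 8.8% as lower in EX. The groups did not overlap for 8 of the 10 clock genes, against 33.7% of the genes tested. The clock genes and the lists below were chosen with earlier results of these data known. Comparisons of their shares and sizes with those of all genes are therefore a description and no test. The median log2 fold change of the 10 genes was -0.18, while that of all genes tested was 0.00, and the median size of the change was 0.21 for the clock genes and 0.10 for all genes. The calls over all genes were 991 higher and 958 lower, but with library totals taken without the 20 most abundant genes they were 772 and 1259. With limma on FPKM they were 411 and 1037, and on TPM 340 and 1684, where both the test and the measure differed.

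**Figure D1:**
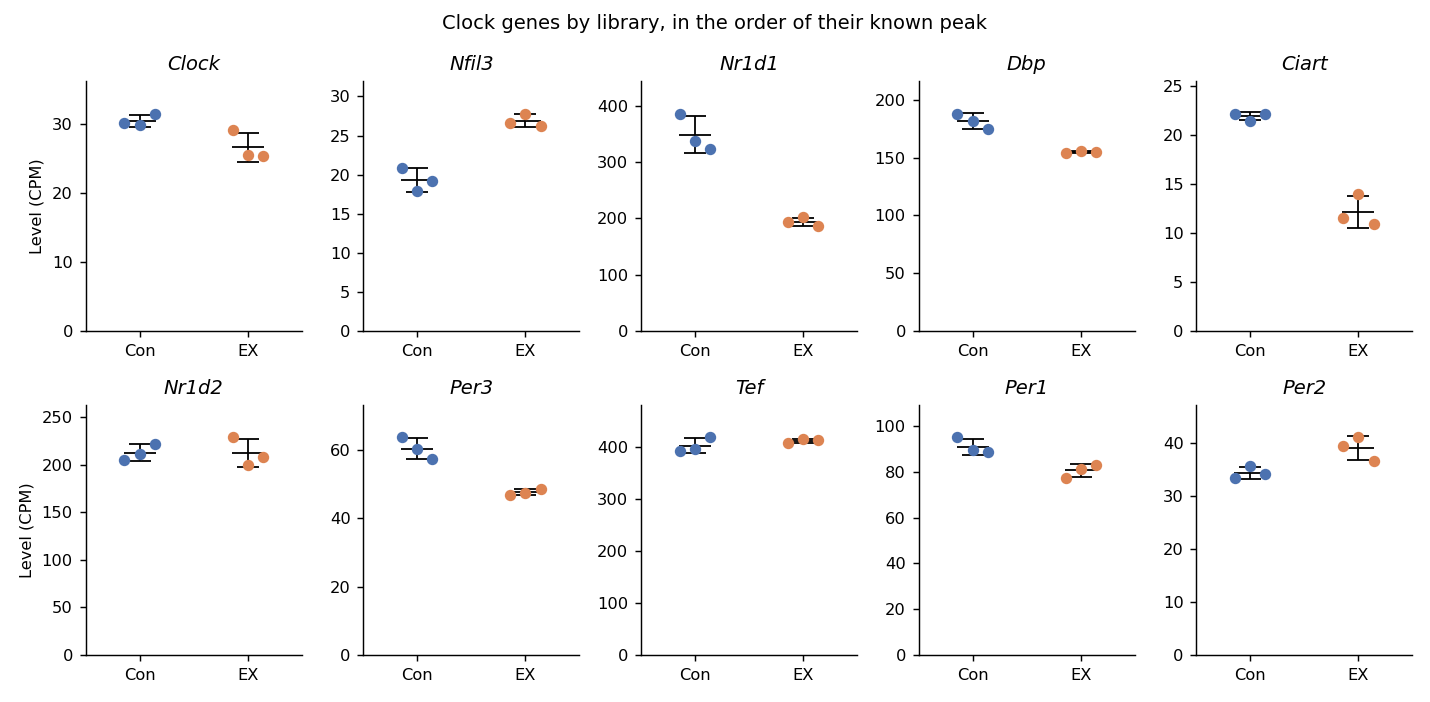
Level of each clock gene in CPM (vertical axis, from 0) in the 3 Con and 3 EX libraries; points are libraries, the horizontal bar is the mean and the error bars are 1 SD. The groups are apart in every panel except those of Nr1d2 and Tef, and Nr1d1 and Ciart show the widest gaps.

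Clock encodes the partner of BMAL1 and is the only one of the 10 genes on the activating side of the loop. Its level was 30.1, 29.8 and 31.5 CPM in Con replicates 1 to 3 and 29.1, 25.5 and 25.3 CPM in EX replicates 1 to 3. The EX values lay below the Con values, although the highest EX value came close to the lowest Con value. Clock was thus 12.7% lower in EX (log2 fold change -0.20, SE 0.07, adjusted p = 0.0381 by edgeR). Clock passed the threshold in 6 of 14 alternative settings, and its adjusted p was between 0.056 and 0.179 when replicate 2 or 3 of either group was left out.

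Nfil3, the repressor on D-box sites, rose in EX muscle. Its level was 20.9, 17.9 and 19.2 CPM in Con and 26.6, 27.8 and 26.2 CPM in EX. All EX libraries lay well above all Con libraries. Nfil3 was 39.3% higher in EX (log2 fold change 0.48, SE 0.07, adjusted p = 1.07e-05), the larger change of the 2 clock genes that rose. Clock and Nfil3 are placed side by side in the phase order, and the signs of their changes were opposite.

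Nr1d1, the REV-ERB alpha repressor, fell from 386, 338 and 323 CPM in Con to 193, 202 and 187 CPM in EX. Every EX library lay far below every Con library, and the Con libraries spread more widely than the EX libraries. The mean was 349.1 ± 33.3 (SD, n = 3) CPM in Con and 193.9 ± 7.84 in EX, 44.4% lower (log2 fold change -0.85, SE 0.05, adjusted p = 3.96e-13 by edgeR). Of all genes tested, 0.946% changed by more. Exons of Nr1d1 share 263 bases, 8.55% of their length, with the antisense gene Thra, and reads there cannot be assigned without strand, which the sources used here do not state. Thra stood at 82.9 ± 3.03 (SD, n = 3) CPM in Con and 73.5 ± 2.16 in EX, and its log2 fold change was -0.17 (adjusted p = 0.00823).

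Nr1d2, the REV-ERB beta paralogue of Nr1d1, had 205, 212 and 222 CPM in Con and 229, 200 and 208 CPM in EX. Its highest and its lowest library were both EX libraries, so that the groups overlapped. Its log2 fold change was -0.01 with a 95% interval from -0.10 to 0.09 (adjusted p = 0.953), and its sign turned positive when Con replicate 3 or EX replicate 2 or 3 was left out. Reads of Nr1d1 per read of Nr1d2 numbered 1.89, 1.60 and 1.45 in Con and 0.843, 1.01 and 0.897 in EX. This ratio does not depend on how libraries are scaled. It was lower in all EX libraries than in any Con library, by 0.84 on the log2 scale (SE 0.13). The 7 ratios given here and below were chosen after the values of the genes were seen, so they are a description with no test.

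Ciart encodes CHRONO, a repressor of CLOCK and BMAL1, and its promoter stretch above carries 3 E-boxes. Its level was 22.2, 21.5 and 22.2 CPM in Con and 11.6, 14 and 10.9 CPM in EX. The Con libraries lay within a narrow band, well above all EX libraries. Ciart fell by 0.85 on the log2 scale (SE 0.08, adjusted p = 2.12e-08), about as much as Nr1d1, although Nr1d1 was far more abundant. Per transcript length, Nr1d1 had 145.2 FPKM and Ciart 17.7 FPKM on average in Con.

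Dbp, a D-box activator and a widely used readout of the clock, had 188, 182 and 175 CPM in Con and 154, 156 and 155 CPM in EX. The EX libraries were almost alike, and all lay below the lowest Con library. Its log2 fold change was -0.23 (SE 0.04, adjusted p = 1.17e-04). Exons of Dbp share 539 bases, 18% of their length, with the antisense gene Sphk2, whose level was 16.9 ± 1.03 (SD, n = 3) CPM in Con and 18 ± 0.872 in EX. The log2 fold change of Sphk2 was 0.09 (adjusted p = 0.461), opposite in sign to that of Dbp.

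Tef, the other D-box activator among the 10 genes, had 392, 396 and 418 CPM in Con and 407, 414 and 413 CPM in EX. The groups overlapped, with a log2 fold change of 0.03 and a 95% interval from -0.04 to 0.11 (adjusted p = 0.585). With limma on FPKM or TPM the sign of this change was negative. Reads of Dbp per read of Tef numbered 0.479, 0.460 and 0.419 in Con and 0.379, 0.377 and 0.375 in EX, which do not overlap. The Dbp to Tef ratio fell by 0.26 on the log2 scale (SE 0.06). Set against their opponent Nfil3, Dbp had 9, 10.2 and 9.12 reads per Nfil3 read in Con and 5.80, 5.62 and 5.91 in EX. On the log2 scale the Dbp to Nfil3 ratio fell by 0.71 (SE 0.06), more than either gene alone, since Dbp was lower and Nfil3 higher.

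The PER repressors moved in different directions. Per3, whose promoter stretch above holds the D-boxes, had 63.6, 60.1 and 57.3 CPM in Con and 46.7, 47.4 and 48.5 CPM in EX, with every EX library below every Con library. Per3 fell by 0.34 on the log2 scale (SE 0.05, adjusted p = 1.47e-05). Per1, which also responds at once to light, hormones and other signals, had 95, 89.3 and 88.6 CPM in Con and 77.3, 81.2 and 83.1 CPM in EX. All EX libraries were below the Con libraries here too, with a smaller gap. For Per1 the log2 fold change was -0.17 (SE 0.05, adjusted p = 0.00813), and its adjusted p was 0.0565 without EX replicate 1, where the change was -0.15.

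Per2, the last of the order, was higher in EX. Its level was 33.4, 35.6 and 34.1 CPM in Con and 39.4, 41.0 and 36.6 CPM in EX. EX replicate 3 was close to Con replicate 2, and the groups did not overlap. Per2 was 13.5% higher (log2 fold change 0.18, SE 0.06, adjusted p = 0.0288), and Per2 passed the threshold in 6 of 15 alternative settings. Its adjusted p was between 0.0728 and 0.151 when Con replicate 1 or 3 or EX replicate 1 or 2 was left out.

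Within a library, Per1 had 2.85, 2.51 and 2.60 reads per Per2 read in Con and 1.96, 1.98 and 2.27 in EX. Per3 had 1.91, 1.69 and 1.68 reads per Per2 read in Con and 1.19, 1.16 and 1.32 in EX. Both ratios were lower in every EX library, by 0.36 and 0.52 on the log2 scale (SEs 0.09 and 0.08). Per1 per read of Per3 was 1.51 ± 0.0321 (SD, n = 3) in Con and 1.70 ± 0.0351 in EX, again without overlap. Nr1d1 per read of Clock, a repressor against its target, was 11.5 ± 1.29 in Con and 7.32 ± 0.654 in EX.

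**Figure D2:**
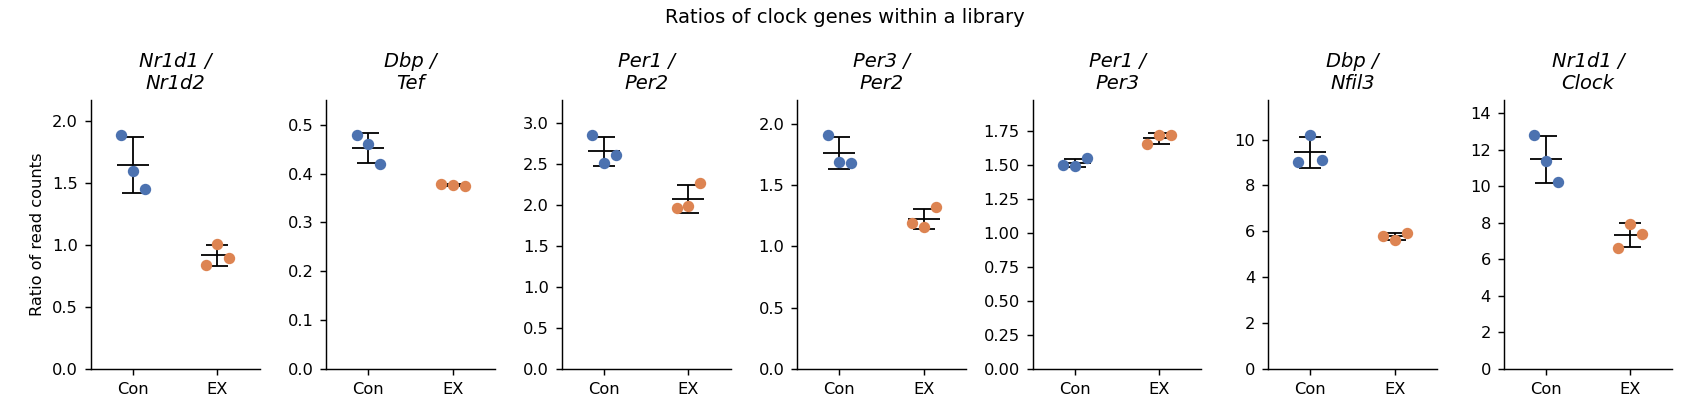
Ratio of read counts of a pair of clock genes within each library (vertical axis, from 0, no unit) for 3 Con and 3 EX libraries, with the mean and 1 SD. No pair overlaps between the groups, and the Nr1d1 to Nr1d2 ratio goes from 1.64 in Con to 0.917 in EX.

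Per length of transcript, the 10 genes covered a wide range of levels. Averaged over the 6 libraries, Dbp had 126.7 FPKM, Nr1d1 111.4 FPKM and Tef 104.1 FPKM. Nr1d2 followed with 49.1 FPKM, Per1 with 19.3, Ciart with 13.5, Nfil3 with 13.3, Per3 with 9.56, Per2 with 6.80 and Clock with 3.06 FPKM. The order at the top differed between groups, since Nr1d1 stood first in Con at 145.2 ± 12.4 (SD, n = 3) FPKM, ahead of Dbp at 137.9 ± 3.49, a gap within their spread. In EX, Dbp came first at 115.6 ± 1.03, followed by Tef at 103.5 ± 0.593 and Nr1d1 at 77.5 ± 2.73. Ciart lay above Nfil3 in Con, with 17.7 ± 0.313 against 11.2 ± 0.953 FPKM, and below it in EX, with 9.25 ± 1.25 against 15.4 ± 0.297. The FPKM values of Per3 and Per2 also came closer, with 10.9 against 6.44 among Con mice and 8.25 against 7.17 among EX mice.

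In spread between mice of the same group, the clock genes lay on both sides of the median gene. Of all genes tested, 22.4% spread more than Ciart and 35.4% more than Nr1d1, against 90.7% for Tef. The SD of log2 CPM within groups ranged from 0.0362 for Tef to 0.132 for Ciart, with a median of 0.0825 over all genes tested. Of the 10 genes, Nr1d1 and Ciart had the widest spread and also the largest changes, and their changes were 8.15 and 6.45 times their spread. For Nfil3, Dbp and Per3 this multiple was 5.76, 6.17 and 6.10, and for Per1, Per2 and Clock it was 3.22, 2.68 and 2.30. Con replicate 1 held the highest Con value of Nfil3, Nr1d1, Dbp, Ciart, Per3 and Per1 and the lowest of Nr1d2, Tef and Per2. EX replicate 3 held the lowest EX value of Clock, Nfil3, Nr1d1, Ciart and Per2.

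**Figure D3:**
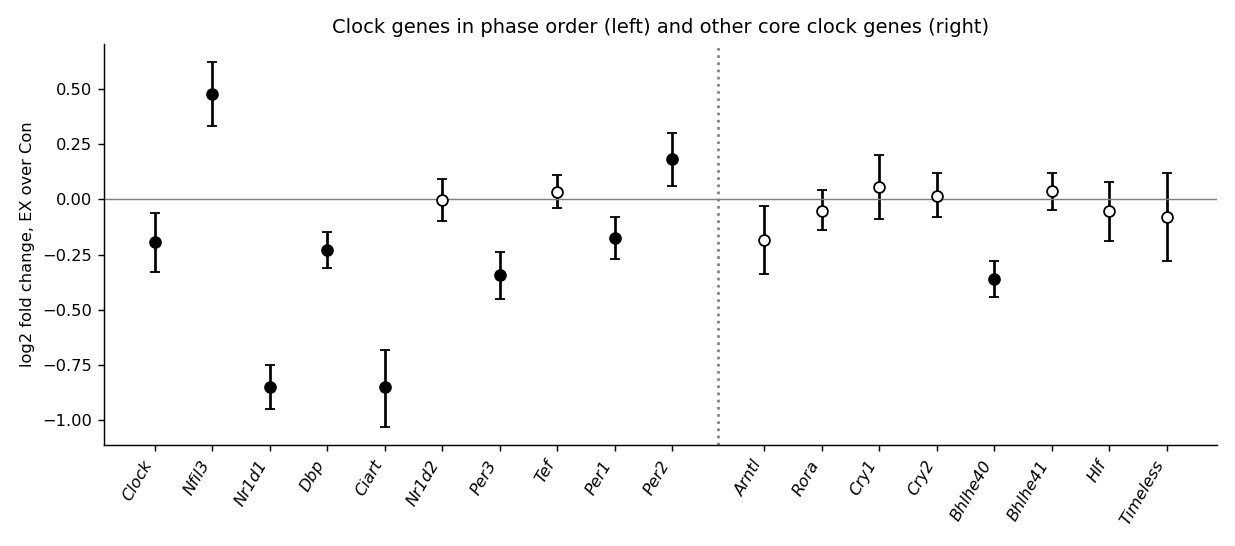
Log2 fold change of EX over Con (vertical axis) with its 95% interval for the 10 clock genes in the order of their known peak, left of the dotted line, and for 8 other core clock genes, right of it; filled points passed an adjusted p of 0.05. Nr1d1 and Ciart lie lowest at -0.85, Nfil3 highest at 0.48, and on the right the filled point is Bhlhe40.

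Of 11 further core clock genes, 8 were above the limit of 1 FPKM, and 1 of these, or 12.5%, passed the threshold, against 17.9% of all genes. Their median log2 fold change was -0.05. Bhlhe40 (also called DEC1), a repressor on E-boxes, was the gene that passed. Its level was 268, 255 and 255 CPM in Con and 202, 205 and 200 CPM in EX, with a wide gap between the groups (log2 fold change -0.36, adjusted p = 5.35e-08). Its paralogue Bhlhe41 had a log2 fold change of 0.04 (95% interval from -0.05 to 0.12, adjusted p = 0.620). On the activating side, Arntl had 20.1, 21.2 and 22.4 CPM in Con and 19.9, 19.4 and 16.8 CPM in EX. These values did not overlap (log2 fold change -0.18, adjusted p = 0.0988). Without Con replicate 1 the change of Arntl was -0.22 and its adjusted p was 0.0467.

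The CRY repressors did not pass, with log2 fold changes of 0.06 for Cry1 (95% interval from -0.09 to 0.20) and 0.02 for Cry2 (from -0.08 to 0.12). The activator Rora, which competes with the REV-ERB proteins, had a change of -0.05 (from -0.14 to 0.04). Hlf, the third D-box activator, had -0.06 (from -0.19 to 0.08) and Timeless -0.08 (from -0.28 to 0.12). Signs of Cry1, Cry2, Bhlhe41 and Hlf differed between alternative settings. Npas2 and Arntl2, substitutes for Clock and Arntl, were under the limit, at 1.18 and 2.26 CPM in Con and 0.927 and 2.34 CPM in EX. Rorb, the ROR gene of brain and retina, had 0.134 and 0.169 CPM.

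Kinases, ubiquitin ligases and cofactors act on clock proteins and are taken as a further list. Of 25 tested, 3 were higher and 5 lower in EX, or 32.0% in all, against 17.9% of all genes tested (9.11% higher and 8.8% lower). Their median log2 fold change was -0.02. The chromatin cofactors Kmt2a and Ep300 fell by 0.32 and 0.19 on the log2 scale (adjusted p = 3.98e-05 and 0.00789), from 62.5 ± 3.75 (SD, n = 3) to 49.8 ± 1.55 CPM and from 66.8 ± 2.34 to 58.6 ± 2.90 CPM. The ubiquitin ligase genes Fbxw7 and Skp1a rose by 0.31 and 0.19 (adjusted p = 0.00164 and 0.00138). With limma on FPKM neither of these ligase genes passed. Without EX replicate 3 the adjusted p of Ep300 was 0.0828 (log2 fold change -0.15), and the list held 2 higher and 2 lower genes.

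Of 18 genes known as outputs of the clock in muscle and other tissues, 7 were higher and 3 lower in EX, 55.6% in all, against 17.9% of all genes tested (9.11% higher and 8.8% lower). For 14 of them the groups did not overlap, 77.8% against 33.7% of all genes tested. Their median log2 fold change was 0.09. Tsc22d3 (GILZ), a gene induced by glucocorticoids, rose from 220, 219 and 229 CPM to 344, 339 and 349 CPM. These values were far apart and the log2 fold change was 0.63 (adjusted p = 4.45e-13). Noct, a phosphatase with a strong daily rhythm, averaged 25.3 ± 0.369 CPM (SD, n = 3) in Con and 38.3 ± 1.35 CPM in EX (log2 fold change 0.60, adjusted p = 1.78e-08). Ucp3, a carrier of the inner mitochondrial membrane, rose by 0.49 (adjusted p = 4.77e-09). The muscle regulator Myod1, whose enhancer is bound by CLOCK and BMAL1, rose by 0.44 (adjusted p = 5.27e-07), from 42.3 ± 2.79 to 57.3 ± 0.958 CPM. Whether the outputs differ as a list from the clock genes was not tested.

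Heat shock and cold-induced genes follow the daily rhythm of body temperature, and 6 of 8 were higher and 1 lower in EX, with a median log2 fold change of 0.36. Of all genes tested, 9.11% were higher and 8.8% lower. Hspa1b and Hspa1a, near-identical copies whose reads may be shared between them, rose by 1.25 and 1.11 (adjusted p = 8.61e-09 and 2.06e-08). Dnajb1 rose from 9.04, 10.7 and 10.8 CPM to 18.8, 18.6 and 18.9 CPM, with no overlap (log2 fold change 0.88, adjusted p = 1.74e-08). Hsp90aa1 rose by 0.45 (adjusted p = 1.19e-07). The 1 gene that fell was the cold-induced Cirbp, named after its value was seen, from 29.2, 35.2 and 34.3 CPM to 24.3, 25.3 and 25.5 CPM (log2 fold change -0.40, adjusted p = 1.06e-04). The other cold-induced gene, Rbm3, had 79.9 ± 0.846 CPM (SD, n = 3) in Con and 76.5 ± 4.22 in EX and did not pass (log2 fold change -0.06, adjusted p = 0.407). The part of these genes in the clock result was not tested.

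**Figure D4:**
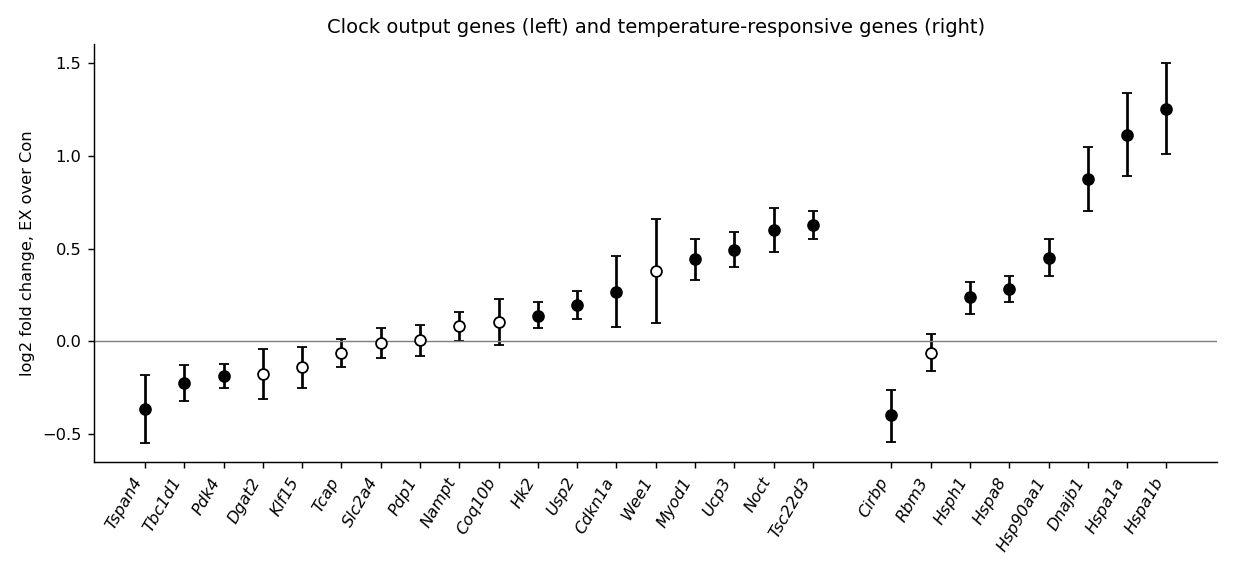
Log2 fold change of EX over Con (vertical axis) with its 95% interval for 18 clock output genes (left) and 8 temperature-responsive genes (right), each sorted by size; filled points passed an adjusted p of 0.05. The left group reaches from Tspan4 at -0.37 to Tsc22d3 at 0.63, and the right group from Cirbp at -0.40 to Hspa1b at 1.25.

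For the patterns most like those of Nr1d1 and Dbp, all other genes tested were ranked by the Pearson correlation of their log2 CPM over the 6 libraries. Nearest to Nr1d1 were Svil (r = 0.999), an actin-binding protein, Nrap (0.999), a protein of the myofibril, and the clock repressor Bhlhe40 (0.998). Vgll2 (0.997), a transcription cofactor of muscle, and Acss1 (0.996), an acetyl-CoA synthetase of mitochondria, came next. Nearest to Dbp were the Notch ligand Jag1 (0.998), the transcription factor Osr2 (0.996), the autophagy protein Wdfy3 (0.995), the growth hormone effector Stat5b (0.994) and again Nrap (0.994). The points of each correlation share library and group. Counted with the clock genes, 33 genes had an r over 0.99 with Nr1d1 and 12 with Dbp. Log2 fold changes of the neighbours named ran from -0.16 for Svil to -0.69 for Vgll2, and that of Osr2 did not pass (adjusted p = 0.0986). All were negative, which follows from choosing genes by their likeness to Nr1d1 and Dbp, both lower in EX.

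Read counts totalled between 13845362 and 16240431 per library. Markers of skeletal muscle fibres made up 151000 to 159000 CPM in Con and 169000 to 177000 CPM in EX (7 of 10 higher, and 1, Mb, lower), the largest sum of any marker list, and no marker of the lists below was at 0 in all libraries. Counts of markers called stand against 9.11% of all genes tested that were higher and 8.8% that were lower. Of slow fibre markers, 9 of 9 tested were higher, with a median log2 fold change of 3.48, and their sum was between 172 and 180 CPM in Con and between 450 and 479 CPM in EX. Myh7, the slow myosin heavy chain, averaged 1.005 ± 0.163 CPM (SD, n = 3) in Con and 102.2 ± 7.38 CPM in EX. Macrophage markers went from 34.0 to 37.9 up to 60.8 to 65.6 CPM (4 of 5 higher) and tendon markers from 163 to 180 up to 238 to 255 CPM (3 of 4 higher). The sums of fat cell markers overlapped, at 231 to 250 CPM in Con and 247 to 255 CPM in EX, and most of each sum was Fabp4, with 229.2 ± 9.90 CPM (SD, n = 3) in Con and 215.3 ± 3.70 in EX (log2 fold change -0.09, adjusted p = 0.112). The other tested fat cell markers, Adipoq, Cfd and Cidec, were higher in EX, the least changed being Adipoq with a log2 fold change of 1.19. Endothelial markers went from 692 to 707 down to 603 to 623 CPM (4 of 7 lower), and Schwann cell markers from 76.3 to 84.0 down to 55.1 to 56.5 CPM (3 of 4 lower). Of the endothelial calls, Kdr was lost when replicate 2 of either group or replicate 3 of either group was left out (adjusted p between 0.0561 and 0.0953), and Pecam1 without EX replicate 3 (0.0549). Red blood cell markers spanned 242 to 266 CPM in Con and 264 to 291 CPM in EX (1 of 5 higher). That gene, Hba-a1, a near-identical copy of Hba-a2, did not pass without Con replicate 2 (adjusted p = 0.0532), without EX replicate 2 (0.0837) or with limma (0.136 to 0.221). The clock genes together summed to between 1380 and 1440 CPM in Con and between 1190 and 1210 CPM in EX. Markers of fibre type and of other cell types thus also differed between the groups, and their part in the clock result was not tested.

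**Figure D5:**
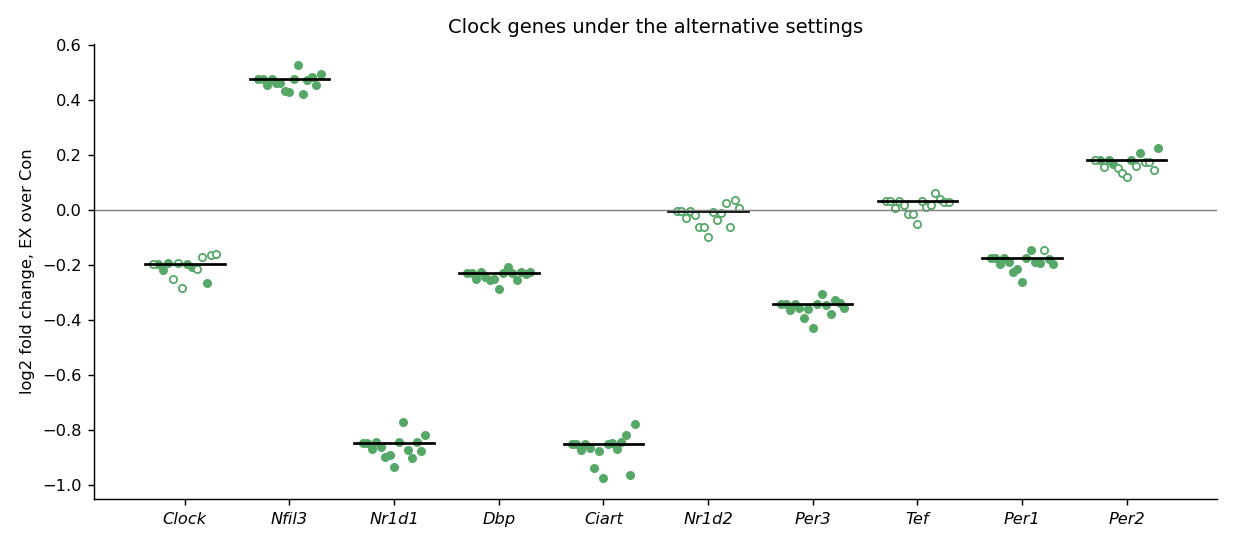
Log2 fold change of EX over Con (vertical axis) of the 10 clock genes under 15 alternative settings, 14 for Clock (points), and in the main test (black line). Filled points passed an adjusted p of 0.05 and open points did not. Points of Nr1d1, Ciart, Per3, Dbp and Nfil3 are all filled, those of Clock, Per1 and Per2 are filled and open, and those of Nr1d2 and Tef are all open.

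The changes of 8 clock genes kept their direction in all 119 values computed under alternative tests, scalings, filters and left-out libraries, of which 101 passed the threshold. Nr1d1, Ciart, Per3, Dbp and Nfil3 passed in every alternative. The log2 fold change of Nr1d1 ranged from -0.94 to -0.77, that of Ciart from -0.98 to -0.78 and that of Per3 from -0.43 to -0.31. For Dbp it ranged from -0.29 to -0.21 and for Nfil3 from 0.42 to 0.53. Over the alternatives, 6 to 8 of the 10 clock genes passed.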

How the data were processed

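RNA of hind leg muscle from 3 Con and 3 EX mice was sequenced by the authors as paired-end libraries on the DNBseq platform, and the reads were filtered and matched to the genome with HISAT. The paper's methods name GRCm39, while the submitters' processing notes name GRCm38.p6, cutadapt, MultiQC and featureCounts, and versions and strand are not given in the sources used here. The authors deposited estimated counts per gene, which are not normalized, with the FPKM and TPM values they derived. The 6 columns of group means in that table were not used.

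Estimated counts were rounded and compared with edgeR 4.0.16 (glmQLFit, glmQLFTest) in R 4.3.3 with TMM scaling, for genes that averaged 1 FPKM or more. Genes passed at an adjusted p-value below 0.05. Genes under that limit were taken from a fit without it. For single genes, standard errors came from the F statistic, and 95% intervals from its degrees of freedom. Standard errors of the ratios came from the variance of the log2 ratios within each group, so the SE of a ratio and that of a gene are not alike. Alternatives were DESeq2 1.42.0, limma 3.58.1 on log2(FPKM + 0.1), log2(FPKM + 1) or log2(TPM + 0.1), with fold changes on those scales, other scalings and filters, a replicate block and each library left out. The tests were checked on simulated counts.

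The clock genes and the lists (other core clock genes, modifiers, outputs, temperature-responsive genes, cell type markers) were chosen with earlier results of these data known. Named were all 10 clock genes, the 11 further core clock genes of the list and, outside the clock genes, the 5 most like each of Nr1d1 and Dbp. Of each further list, up to 4 genes with the largest changes past the threshold were named. Cirbp, Rbm3 and, in a caption, Tspan4 were added after their values were seen. For the marker lists counts and sums are given, with Myh7, Mb, Kdr, Pecam1, Hba-a1 and 4 fat cell markers named after their values were seen. Sequences are RefSeq's and exon overlaps GENCODE M21's, both on GRCm38. A further core clock gene, outside these lists, is not reported here. Replicates of a group differed by 1.82 to 4.37 times the sampling noise per gene, so none was counted as a duplicate. The p-values measure the spread between these mice. Same-numbered libraries of the groups did not deviate together (correlations of -0.084 to -0.052), so the number was not taken to pair them.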

Additional observations from a re-analysis of the deposited data

How the results depend on the processing

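The number of genes past the threshold, 1949 in the test reported, was 1228 with DESeq2, all of which were among the 1949, and between 1344 and 1857 with 1 library left out. It was 1782 with the replicate block, of which 1766 were shared, and the block changed no call of a clock gene. With 1 library left out, 6 to 7 clock genes, 1 to 2 other core clock genes, 4 to 7 modifiers, 9 to 11 outputs and 7 temperature-responsive genes passed. The modifiers numbered 8 in the test reported and 4 with limma on log2(FPKM + 0.1) or log2(FPKM + 1), and 2 other core clock genes passed with limma on TPM. DESeq2 left Clock at an adjusted p of 0.156 and Per2 at 0.126. The cause of these shifts was not tested. Signs turned for genes that did not pass in either fit. With limma on log2(FPKM + 0.1), log2(FPKM + 1) and log2(TPM + 0.1), the changes were -0.0154, -0.0153 and -0.0508 for Tef and -0.0025, -0.0021 and -0.0375 for Cry1. They were -0.0421, -0.0398 and -0.0775 for Cry2 and -0.0203, -0.0195 and -0.0555 for Bhlhe41. Without the 20 most abundant genes in the totals, that of Cry2 was -0.0086. With 1 library left out, Cry2 ranged from -0.0114 (without Con replicate 2) to 0.0373 and was -0.009 without EX replicate 3. Nr1d2 ranged from -0.0633 to 0.0366 (without EX replicate 2), with 0.0249 when Con replicate 3 was left out and 0.0087 when EX replicate 3 was, and Hlf from -0.0972 to 0.0109 (without Con replicate 3).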
